A study of Drosophila melanogaster with 2 samples.

Results

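The regions described here are 1782 weak peak summits of the Hox protein Scr, each lying at the promoter of a single protein-coding gene in the Drosophila embryo. They were chosen by 2 measured values of the list made from both replicates. The summit had to lie within 500 bp of an annotated transcription start site (TSS) of exactly 1 protein-coding gene, and the signal of the peak had to be below 200. The signal is a value that the authors gave each peak, on a scale that the sources used here do not state. Of the 5720 summits on the chromosome arms, the 1782 members made up 31.2%. The other summits at single-gene promoters were the 1040 with a signal of 200 or more, called strong below. A further 1760 summits lay at promoters shared by several genes, 829 of them weak, and 942 weak summits lay more than 500 bp from every protein-coding TSS.

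Chromatin immunoprecipitation with sequencing was done on whole Drosophila melanogaster embryos of 0 to 24 h from a transgenic line that makes Scr fused to eGFP. The fusion protein was recovered with an antibody against GFP, although the antibody field of the labels names Scr. Chromatin was sonicated to 200 to 800 bp. There were 2 biological replicates in 1 group, with no other genotype, age or treatment, and sex was not recorded. Whole embryos mix all tissues and stages of this interval, so more Scr per cell and more cells with Scr at a promoter cannot be told apart. Sequencing depth is not given by the peak lists.

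Scr (Sex combs reduced) is the Hox protein of the labial and first thoracic segments, and it directs the formation of the salivary glands. Hox proteins bind short AT-rich homeodomain sites, alone or with the partner proteins Exd and Hth. Fly promoters fall into broad types: those of general cell functions often carry sites for DREF or M1BP, while those of developmental regulators more often carry GA repeats, bound by GAGA factor, and an initiator element at the TSS.

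Sequences around 6 member summits are shown because each holds a site that was more frequent at the summits than 500 bp upstream. Each is the 61 bases centred on the summit, on the strand of the gene (dm6, sequence from RefSeq), and lies outside annotated exons. For each site the member of highest signal that met these conditions was taken among the chromosome arms searched. Not every arm was searched, so a member of higher signal elsewhere may hold the same site. Capitals mark the site named.
Sf3b3 (TATCGATA, DREF, chr3L:833443-833503, minus strand): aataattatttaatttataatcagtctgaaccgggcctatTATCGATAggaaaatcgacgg
ZAP3 (GGTCACAC, M1BP, chrX:10082514-10082574, minus strand): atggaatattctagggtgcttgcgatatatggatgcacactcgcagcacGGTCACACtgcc
eyg (GAGAGAG, site of GAGA factor, chr3L:12468135-12468195, minus strand): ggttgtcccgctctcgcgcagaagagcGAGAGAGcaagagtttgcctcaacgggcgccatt
CG34149 (CAGCTG, known as E-box, chr3R:22380056-22380116, plus strand): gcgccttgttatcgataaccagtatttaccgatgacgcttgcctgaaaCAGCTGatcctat
eEF1alpha2 (CATCNCTA, known core promoter motif, chr3R:31738403-31738463, plus strand): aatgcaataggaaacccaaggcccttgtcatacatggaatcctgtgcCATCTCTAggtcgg
CG10947 (AGNNGGCG, core of the CTCF site, chr2L:20415017-20415077, minus strand): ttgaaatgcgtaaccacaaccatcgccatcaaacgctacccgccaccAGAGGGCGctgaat

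The same windows are shown for 3 of the 5 Hox genes with a member summit, selected after their values were seen. Capitals here mark any of the 22 sites searched.
abd-A (chr3R:16830174-16830234, minus strand): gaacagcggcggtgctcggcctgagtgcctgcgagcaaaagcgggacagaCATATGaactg
Scr (chr3R:6848664-6848724, minus strand): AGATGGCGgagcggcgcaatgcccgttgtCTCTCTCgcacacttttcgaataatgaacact
Ubx (chr3R:16734542-16734602, minus strand): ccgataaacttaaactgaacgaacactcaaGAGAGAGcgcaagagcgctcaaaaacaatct
The windows of Scr and Ubx held the GA repeat of GAGA factor, on opposite strands relative to the gene. None of the 3 held the homeodomain site TAATTA or the Exd-Hox site TGATNNAT within these bases. The windows of Abd-B and lab are not shown, and that of Abd-B held none of the 22 sites.

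The members ranged in signal from 2.33 to 199.988, with a median of 93.7 and an interquartile range of 73.4 to 121. The strong summits had a median of 465 (303 to 704). These values chose the members and are given as a description. Just inside the threshold lay nemy (199.988), Sf3b3, a splicing factor subunit gene (199.608), and CLS, the cardiolipin synthase gene (199.606). Just outside it lay CG5515 (200.525), CG7945 (200.624) and pyd, a cell junction scaffold gene (201.355). The lowest members were at Pnn (2.33), EndoA, which encodes the endocytic protein endophilin (2.58), and SdhD, a subunit of succinate dehydrogenase (2.68).

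The members split into 2 kinds by whether their entry shared bases with a stronger entry in the list. Such an overlap was present for 385 members (21.6%, Wilson 95% interval 19.8 to 23.6) and for 34 of the 1040 strong summits (3.27%). A lower signal leaves more entries that can be stronger, so this contrast is partly given by the rule. Of the weak summits at promoters of several genes 35.2% had such an overlap, and of those away from promoters 11.1%. Among the members, overlap took in nearly all of the lowest values. Of the 97 members with a signal below 20, 96 overlapped a stronger entry, while of the 216 members from 150 to 200, 19 did. Pnn, EndoA and SdhD all overlapped one. The 1397 isolated members had a median signal of 98.8, and 36 of them were below 60, against 215 of the overlapping ones.

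**Figure D1:**
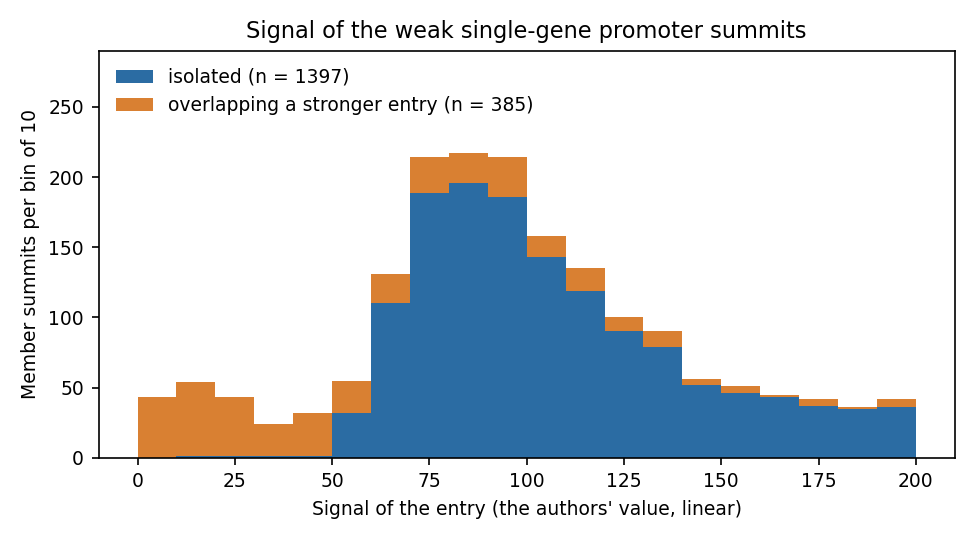
Histogram of the signal of the 1782 member summits (horizontal axis, the authors' value; vertical axis, summits per bin of 10), stacked by whether the entry overlapped a stronger entry. Isolated members centre on a median of 98.8, and the values below 50 belong almost wholly to overlapping members.

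Overlapping members sat at a nearly fixed distance from their stronger neighbour. No pair of summits was closer than 199 bp, the quartiles were 200, 203 and 208 bp, and 312 of the 385 (81.0%) were 190 to 210 bp apart. The neighbour was at the same single gene for 332 of them, at a promoter of several genes for 44, at another single gene for 3 and away from promoters for 6. In 243 cases (63.1%) the neighbour had a signal of 200 or more, and its median signal was 361. For these 385 members the signal and position may therefore be read only together with the larger peak beside them, and results below are also given without them where they differ.

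The 1782 members belonged to 1581 genes, which is 11.3% of the 13968 protein-coding genes on the arms. A strong single-gene summit was present at 997 genes (7.14%), and 234 genes had both kinds. A single member was found at 1399 genes, 2 at 164, 3 at 17 and 4 at 1. The gene with 4 was Pdk1, a kinase gene, whose members had signals of 115.1, 111, 83.1 and 21.7 and lay at -446, 33, -283 and -84 bp from their nearest TSS. Only the weakest of these 4 overlapped a stronger entry. The genes taken as the next by this count were gw, which encodes a component of the microRNA pathway, Cka, chrb and CG13917, each with 3. By arm, the share of protein-coding genes with a member ran from 10.3% on 3R and 2L to 16.2% on chromosome 4, where 13 of 80 genes had one. The Y had no member among its 23 genes.

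The 2 replicates were compared through their own lists, to which the shared list is tied by construction because the same alignments went into it. Entries of both thresholded replicate lists overlapped 783 members (43.9%, 41.7 to 46.3). For 271 members (15.2%) an overlapping entry was found in replicate 1 alone, for 356 in replicate 2 alone and for 372 (20.9%) in neither. Of the strong summits, 1033 (99.3%) overlapped an entry in both. Among the isolated members, 494 (35.4%) overlapped an entry in both lists. Among the overlapping members 289 (75.1%) did, where the replicate's entry may be that of the larger neighbour: at Pnn, with 2.33 in the shared list, the overlapping entries had signals of 474 in replicate 1 and 385 in replicate 2. Asking instead for summits within 100 bp left 498 members (27.9%) in both lists.

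Among the 494 isolated members in both lists, the signal ran from 25.8 to 143 in replicate 1 (median 64.6) and from 12.8 to 138 in replicate 2 (median 72.9). The median log2 ratio of replicate 1 to replicate 2 was -0.13 with an SD of 0.44, and 10 of the 494 were more than 2-fold apart. The strongest members in neither thresholded list were chif, a gene for a regulator of DNA replication (169), CG31522 (129) and CG42327 (127). At chif the overlapping entries of the ranked lists, which also hold entries that did not pass the authors' threshold, had signals of 103 and 50.9. Entries of both ranked lists overlapped 1770 members (99.3%), but these lists hold 67592 and 71892 entries on the arms.

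**Figure D2:**
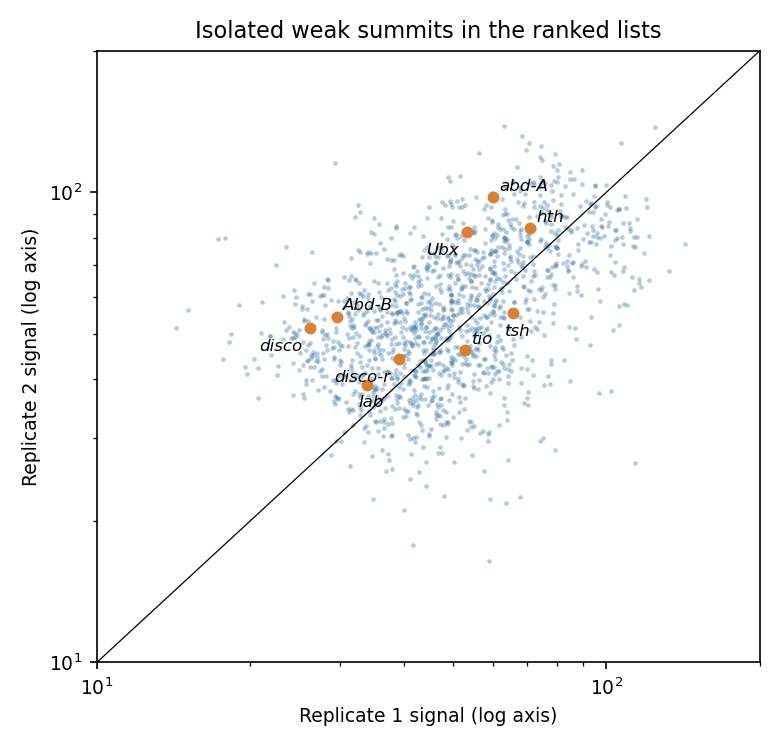
Signal of the overlapping ranked-list entry in replicate 1 (horizontal) and replicate 2 (vertical), both on log axes, for the 1386 isolated members with an entry in both lists. Orange points name the Hox genes and Hox cofactor genes among them; the line marks equal values.

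Members were spread more widely around the TSS than strong summits, and more of them lay downstream of it. The summit was upstream of the nearest TSS in 54.5% of members and 86.2% of strong summits, a difference of -31.6 percentage points (95% interval -34.6 to -28.4, adjusted p = 2.85e-70, two-sided Fisher's exact test, Benjamini-Hochberg over 4 position shares). It was within 100 bp of the TSS in 51.5% against 79.2% (adjusted p = 2.54e-50, same exact test) and more than 250 bp away in 11.5% against 5.77% (adjusted p = 2.24e-07, same exact test). The median position was 14 bp upstream (-14) for members and 45 bp upstream (-45) for strong summits, and the middle 50% of values ran from -112 to 80 and from -84 to -19. Peaks are not replicates, so these p-values describe positions in the lists, not how embryos vary.

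The overlapping members made up a separate part of this distribution. Their median position was 103 bp downstream, and 88 of the 385 (22.9%) lay 150 to 200 bp downstream of the TSS. Of the isolated members, 58.6% were upstream and 60.3% within 100 bp. Without any overlapping entry in either class, the difference in the upstream share was -27.9 points (adjusted p = 1.23e-51, Fisher's exact test). By the annotation, 794 members (44.6%) had their summit in an exon of their gene, 297 (16.7%) in an intron and 691 (38.8%) outside it.

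**Figure D3:**
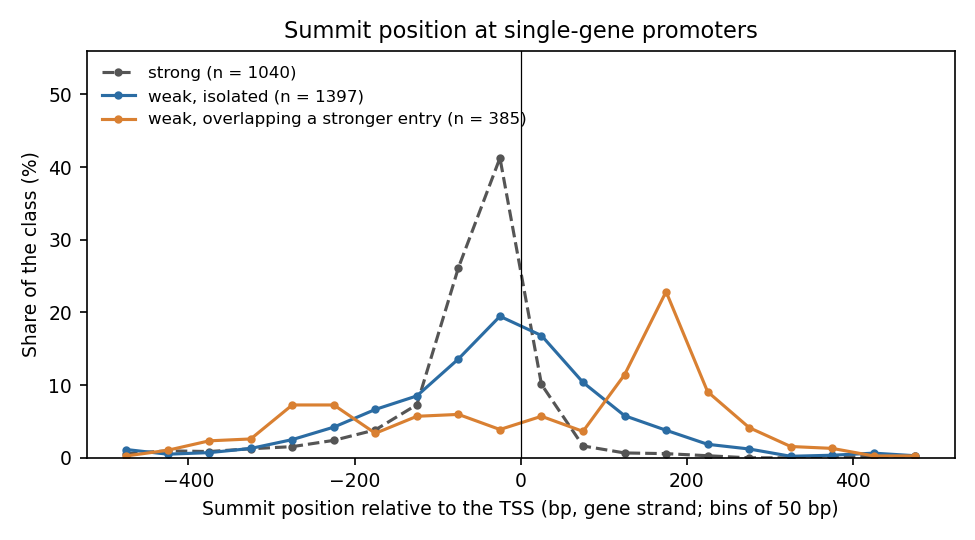
Share of summits (vertical axis, %) by position relative to the nearest TSS of the gene (horizontal axis, 50-bp bins, upstream negative) for strong, isolated weak and overlapping weak single-gene promoter summits. Strong summits peak just upstream of the TSS (41.2% in the bin from -50 to 0), isolated members are broader around the TSS (19.5% in that bin), and overlapping members peak at 150 to 200 bp downstream (22.9%).

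The genes under members were longer and had more spread starts than those under strong summits. This was compared between the 1347 genes with only weak and the 997 genes with strong single-gene summits. Genes over 10 kb made up 31.0% against 18.7% (adjusted p = 2.97e-11, Fisher's exact test, two-sided, over 6 properties), genes with an intron over 5 kb 28.8% against 14.1% (adjusted p = 1.07e-16), and genes with starts spread over more than 500 bp 33.4% against 23.1% (adjusted p = 8.34e-08). Over all protein-coding genes these shares were 14.2%, 12.7% and 15.5%. The X chromosome held 17.0% of the weak-only genes against 22.8% of the strong (adjusted p = 0.00089, Fisher's exact test). A difference was not detected for genes of 1 exon (6.01% and 6.22%, difference -2.24 to 1.73 points) or for genes known only by a CG symbol (27.1% and 25.3%, difference -1.80 to 5.38 points). With members in both replicates' lists only, the difference in spread of starts was 4.98 points (adjusted p = 0.0573, Fisher's exact test) and that in the X share -4.97 points (adjusted p = 0.0564, Fisher's exact test). With a signal threshold of 100 the X difference was -3.09 points (adjusted p = 0.129, Fisher's exact test).

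The initiator was more frequent at the TSSs next to members. TCAGT, the core of the fly initiator, started within 10 bases of the TSS on the gene's strand at 261 of 1480 TSSs of members (17.6%) and at 41 of 1011 TSSs of strong summits (4.06%). The difference was 13.6 points (11.3 to 15.9, adjusted p = 7.23e-27, two-sided Fisher's exact test over 2 elements). A TSS nearest to both a member and a strong summit was counted with the strong summits only. At the most upstream start of all protein-coding genes the share was 13.1%. TATAAA starting 40 to 20 bases before the TSS was found at 2.30% and 2.18% (difference -1.15 to 1.28 points, adjusted p = 0.891, Fisher's exact test), against 7.78% over all genes.

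Both strands were searched for known sites within 50 bp of each summit and within 50 bp of a point 500 bp upstream of it. Of 22 sites, 11 differed between summit and flank in the exact McNemar test (two-sided, Benjamini-Hochberg over the 22): 6 were more frequent at the summit and 5 at the flank. TATCGATA, the site of DREF, was present at 85 summits (4.77%) and 6 flanks (0.337%, adjusted p = 1.16e-19, exact McNemar test), as in the Sf3b3 window shown above. GGTCACAC, the site of M1BP, was present at 67 (3.76%) and 6 (adjusted p = 2.89e-13, exact McNemar test). GAGAGAG, which is bound by GAGA factor, was present at 5.67% of summits and at 25 flanks (1.40%, adjusted p = 1.76e-11, exact McNemar test). The other higher sites were CAGCTG (8.36% and 3.25%, adjusted p = 4.61e-10), AGNNGGCG (5.78% and 2.97%, adjusted p = 0.000104) and CATCNCTA (1.85% and 0.673%, adjusted p = 0.00541), all by the exact McNemar test. The call for CATCNCTA ended with a signal threshold of 100, with members in both replicates' lists (adjusted p = 0.339) and against a flank 1000 bp away (adjusted p = 0.0521, exact McNemar test). In windows centred on the most upstream start of all protein-coding genes, TATCGATA was found in 5.56%, GGTCACAC in 5.58%, GAGAGAG in 1.20%, CAGCTG in 9.33%, AGNNGGCG in 4.10% and CATCNCTA in 3.95%.

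The sites that homeodomain proteins bind were less frequent at the summits than upstream. TAATTA was present in 3.93% of summits and 8.64% of flanks (adjusted p = 1.66e-08, exact McNemar test) and TGATNNAT, the composite site of Exd and a Hox protein, in 4.43% and 7.97% (adjusted p = 3.53e-05). TATAAA (8.47% and 18.9%, adjusted p = 3.02e-18), AGATAA, bound by GATA factors (3.93% and 7.86%, adjusted p = 2.98e-06), and TGCATAC, bound by Su(Hw) (0.561% and 1.52%, adjusted p = 0.0153), were also lower in the exact McNemar test. In windows centred on the most upstream start of all protein-coding genes, TAATTA was found in 2.88% and TGATNNAT in 4.57%. There TATAAA was found in 17.0%, AGATAA in 4.14% and TGCATAC in 0.587%. Of these 5 sites, only TATAAA was well below its share in the windows centred on a TSS (8.47% against 17.0%). The member windows are centred on summits instead, so the 2 kinds of window differ in position, and this contrast was not tested. The call for TGCATAC was lost in either replicate's own list (adjusted p = 0.768 and 0.294, exact McNemar test) and in 7 other alternatives. Base composition moved with these: the median GC content was 45.5% at the summits and 35.6% at the upstream flanks, and 46.5% in windows 500 bp downstream. Against the downstream flank none of these 5 passed the test (adjusted p from 0.107 for AGATAA to 0.785 for TAATTA and TGCATAC, exact McNemar test), nor did AGNNGGCG (adjusted p = 0.615). Against the flank 1000 bp away AGNNGGCG (adjusted p = 0.853) and TGATNNAT (adjusted p = 0.266, exact McNemar test) did not pass either. The sites of DREF, M1BP and GAGA factor and the motifs CAGCTG and CATCNCTA were higher at the summit than at the downstream flank too. TGACAG, bound by the Hox cofactor Hth, was at 3.70% of summits and 2.41% of flanks (adjusted p = 0.0604, exact McNemar test). It passed with a promoter window of 250 bp (adjusted p = 0.0317), with a signal threshold of 300 (adjusted p = 0.00805) and in windows of 51 bp (adjusted p = 0.0173, exact McNemar test).

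Where a TATCGATA lay within 100 bp of a member summit, its median distance from the summit was 18.5 bp, over 111 members. GAGAGAG had a median distance of 39 bp over 183 members and GGTCACAC of 40 bp over 122. GGTCACAC was read on the strand of the gene in 93 of the 121 members that held it on 1 strand only (76.9%, Wilson 95% interval 68.6 to 83.5), and CATCNCTA in 41 of 59 (69.5%, 56.9 to 79.7). GAGAGAG was on the gene's strand in 77 of 166 (46.4%, 38.97 to 53.97). These distances and strands were examined after the sites were counted.

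Weak and strong promoter summits differed in 4 of the 22 sites. TATCGATA was present at 4.77% of members against 31.8% of strong summits, a difference of -27.1 points (-30.1 to -24.1, adjusted p = 4.12e-82, two-sided Fisher's exact test over 22 sites). CATCNCTA was at 1.85% against 11.2% (adjusted p = 1.38e-24, same exact test) and TATAAA at 8.47% against 12.6% (adjusted p = 0.00301, same exact test). GAGAGAG went the other way, at 5.67% of members against 0.865% of strong summits (3.55 to 6.04 points higher, adjusted p = 2.03e-11, same exact test). The call for TATAAA was lost in either replicate's own list, with differences of -1.74 points (adjusted p = 0.596) and -2.15 points (adjusted p = 0.364, Fisher's exact test). It was also lost with a threshold of 300 (-3.02 points, adjusted p = 0.115), with members in both replicates' lists (-2.38 points, adjusted p = 0.443) and in windows of 51 bp (-1.30 points, adjusted p = 0.454), and that for GAGAGAG was lost with a threshold of 100 (1.99 points, adjusted p = 0.0616, Fisher's exact test). The M1BP site did not separate the classes (3.76% and 5.10%, difference -3.04 to 0.20 points, adjusted p = 0.29, same exact test), although within 100 bp of the summit it did (-2.58 points, adjusted p = 0.0395). The E-box CAGCTG did not pass (8.36% and 8.56%, difference -2.41 to 1.88 points). Neither did TAATTA (3.93% and 5.67%, adjusted p = 0.174) or TGATNNAT (4.43% and 5.87%, adjusted p = 0.29, same exact test). Within 100 bp of the summit TAATTA (-4.07 points, adjusted p = 0.00441) and TGATNNAT (-3.21 points, adjusted p = 0.0237, Fisher's exact test) passed. TAATTA also passed with a promoter window of 250 bp (adjusted p = 0.0376) and a threshold of 150 (adjusted p = 0.0377, Fisher's exact test). The median GC content of the strong windows was 39.6%, against 45.5% for members; its part in these differences was not tested.

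Within the isolated members the DREF site went with signal. In 4 groups of 349 or 350 members, from the lowest to the highest signal, it was present in 1.15%, 2.87%, 5.16% and 13.4%. GAGAGAG had no such order, with 5.16%, 6.88%, 8.60% and 4.57%. Among overlapping members TATCGATA was at 1.56% and GAGAGAG at 3.38%. Weak summits at promoters of several genes held TATCGATA at 5.31%, close to the members, and GAGAGAG at 0.724%. The signal chose the members, so these shares are given without a test.

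Against the 942 weak summits away from promoters, members held GGTCACAC more often (3.76% against 0.743%, adjusted p = 1.53e-05, two-sided Fisher's exact test over 22 sites). CAGCTG (8.36% against 5.202%, adjusted p = 0.0133) and GTATTTT or GTATATT, another core promoter motif (7.58% against 4.14%, adjusted p = 0.00339), were also higher in the same exact test. CATATG or CACATG, an E-box of the kind bound by Twist, was lower (5.67% against 9.34%, adjusted p = 0.00339, Fisher's exact test). GAGAGAG was at 5.67% and 7.11% (difference -3.51 to 0.44 points, adjusted p = 0.327) and TATCGATA at 4.77% and 2.97% (difference 0.227 to 3.22 points, adjusted p = 0.115, Fisher's exact test). Without overlapping entries the difference for TATCGATA was 2.91 points and passed (adjusted p = 0.00646, Fisher's exact test). In windows of 51 bp the E-box CAGCTG alone passed (adjusted p = 0.0439, Fisher's exact test).

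**Figure D4:**
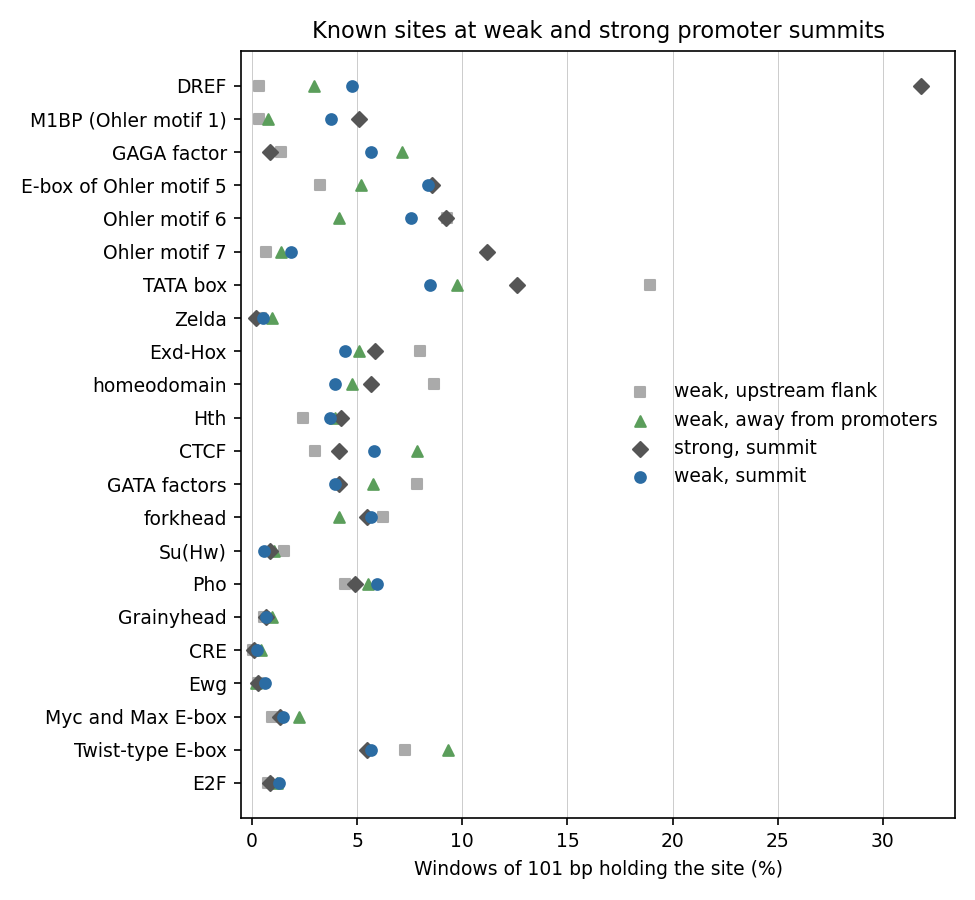
Share of windows within 50 bp of a point (horizontal axis, %) that hold each of 22 sites, named by the factor or motif, at member summits, at their upstream flanks, at strong promoter summits and at weak summits away from promoters. DREF sites stand at 31.8% in strong and 4.77% in weak promoter summits, and GAGA factor sites at 0.865% and 5.67%.

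All distinct 6-base sequences were tested in the same way, counting a sequence and its reverse complement as 1. Between summit and upstream flank 473 (22.7%) were more frequent at the summit and 357 (17.2%) less frequent (exact McNemar test, two-sided, adjusted over all of them). The leading ones, singled out after their values were seen, were TATCGA, at 14.1% of summits and 3.98% of flanks (adjusted p = 3.81e-23), and CGAGCG, at 8.47% and 1.74% (adjusted p = 2.71e-18, exact McNemar test). ATTAAA led those that were less frequent (10.9% and 23.2%, adjusted p = 6.21e-19, exact McNemar test). Against the downstream flank, whose GC content was close to that of the summits, 126 were higher and 170 lower.

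Between members and strong summits 315 of these sequences (15.1%) were more frequent in members and 212 (10.2%) less frequent (two-sided Fisher's exact test, adjusted over all of them). GA-rich sequences led the first group: GAGAGA was at 9.26% against 2.02% (adjusted p = 5.75e-14) and AGAGCG at 11.0% against 2.98% (adjusted p = 6.44e-14, Fisher's exact test). Parts of the DREF site led the second: TATCGA was at 14.1% against 66.6% (adjusted p = 1.54e-177) and ATCGAT at 11.2% against 60.9% (adjusted p = 5.10e-169, Fisher's exact test).

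Genes of development had a member more often than the 11.3% of all protein-coding genes. In 12 lists of Hox, other homeodomain, segmentation, signalling, neural, hormone receptor, mesoderm and salivary gland genes, 102 of 237 genes (43.0%) had a member and 10 (4.22%, against 7.14% of all genes) had a strong single-gene summit. In 12 lists of general cell functions, such as ribosomal proteins, the proteasome and the respiratory chain, 72 of 541 genes (13.3%) had a member and 65 a strong one. Another 222 of these 541 (41.0%) had a summit at a promoter shared with another gene, against 26 of the 237 developmental genes (11.0%) and 20.6% of all genes. These counts are given without a test. In either replicate's own list, with the threshold at the same quantile of signal, 62 (replicate 1) or 71 (replicate 2) of the developmental genes had a weak single-gene summit. These lists hold 4462 and 4376 entries on the arms, against 5720 in the shared list. The share over all genes in them was not computed.

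**Figure D5:**
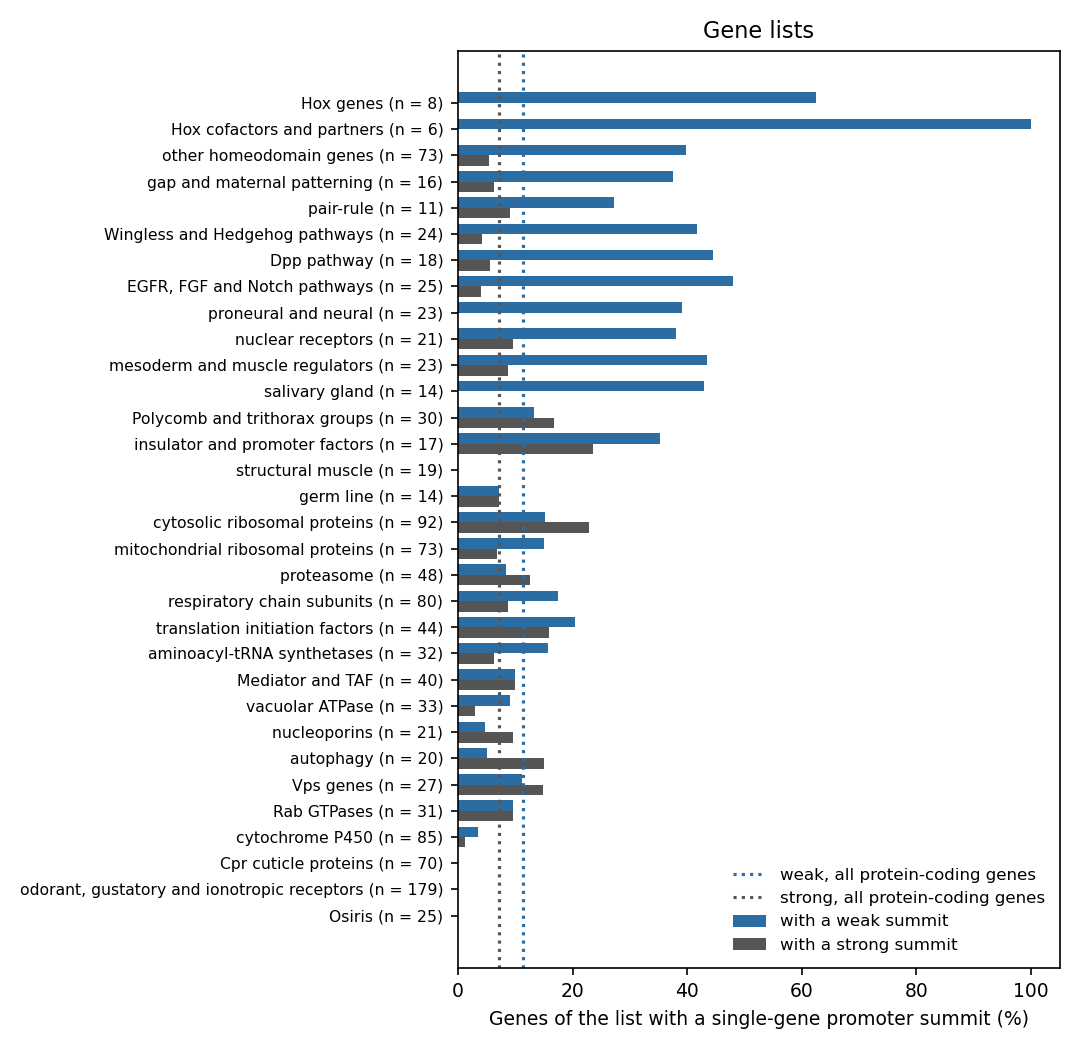
Share of the genes of each of 32 lists (horizontal axis, %) with a weak and with a strong single-gene promoter summit; dotted lines give the shares over all protein-coding genes (11.3% and 7.14%). The lists of developmental regulators at the top run above the weak background. The strong shares of the pair-rule (9.09%), nuclear receptor (9.52%) and mesoderm and muscle regulator (8.70%) lists are above 7.14%, and those of the other developmental lists below it. The lists of cuticle protein, chemoreceptor and Osiris genes at the bottom have neither.

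Of the 8 Hox genes, which set segment identity along the body axis, 5 had a member and none had a strong single-gene summit. Over all protein-coding genes these shares were 11.3% and 7.14%. At the latter share a list this small often holds no strong summit. The highest Hox member was at abd-A, of the posterior segments, at 161 in the shared list, with 59.98 in replicate 1 and 97.8 in replicate 2, its summit 155 bp upstream of the TSS. Scr itself had 142, with 67.1 in replicate 1 and no overlapping entry in either the thresholded or the ranked list of replicate 2, 189 bp upstream. Ubx had 125, with 53.2 and 82.3, 146 bp upstream. In both replicates abd-A was above Ubx, as in the shared list. In replicate 1, which alone had an entry at Scr, Scr was above both. Abd-B, the most posterior, had 80.4 with an entry in the thresholded list of replicate 2 only (54.4), and lab, the most anterior, had 74.6 with none in either. The other 3, pb, Dfd and Antp, had no promoter summit of any class.

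All 6 genes of the list of Hox cofactors and partners had a member and none a strong single-gene summit. Of all protein-coding genes, 11.3% had a member and 7.14% a strong single-gene summit. At the latter share a list this small often holds no strong summit. Hth brings Exd into the nucleus, and hth had a signal of 160 (70.8 in replicate 1 and 83.9 in replicate 2), 197 bp upstream of its TSS. The trunk genes tsh (132) and tio (103), which encode related zinc finger proteins, each had an entry in the thresholded list of replicate 2 only, at 55.5 and 46.2. The zinc finger genes disco-r (73.6) and disco (69.0), which act with Hox genes in the head, lay near the low end of isolated members. The sixth gene, exd, differed from the other 5: its member (71.2) lay 116 bp downstream of the TSS and overlapped a stronger entry. The summit of that entry lay 212 bp away, at a promoter shared by 3 genes, and had a signal of 358. The value at exd may therefore be read only together with this larger peak.

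Among the 73 other homeodomain genes 29 (39.7%) had a member and 4 (5.48%) a strong summit, against 11.3% and 7.14% of all protein-coding genes. The highest was eyg, a Pax gene needed for the salivary gland ducts and the eye, at 193 with 91.6 and 82.0 in the replicates. It was followed by otp (168), achi (154, overlapping a stronger entry), the POU domain gene vvl (145) and the head gap gene oc (143). Of 16 gap and maternal patterning genes 6 had a member, among them cad (112), kni (97.1), ems (94.0) and btd (91.2). Of 11 pair-rule genes 3 did: sob (158), hry (127) and odd (121), and 1 of the 11 (9.09%) had a strong single-gene summit. The list of 14 salivary gland genes, the organ that Scr specifies, had 6 with a member, among them rib (118) and ps (112). None of the 14 had a strong single-gene summit, against 7.14% of all protein-coding genes. At that share a list of this size often holds none. The share of the list with a member (42.9%) was close to the 43.0% of the 12 developmental lists together. Its members eyg, tsh and btd are also in other lists given above.

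Genes at several levels of the signalling pathways had a member, while most genes of the Dpp, Wingless and Hedgehog, and EGFR, FGF and Notch lists had none. Of all protein-coding genes, 11.3% had a member. In the Wingless and Hedgehog pathways 10 of 24 genes (41.7%) had a member: the ligand wg (114.8), the cytoplasmic transducer dsh (185), the kinase gene sgg (126), the co-receptor gene dally (130) and the feedback inhibitor nkd (118) were the 5 highest. In the Dpp pathway 8 of 18 (44.4%) did, with the ligand dpp (139), the receptor tkv (110), the extracellular regulators cv-2 (121) and sog (104) and the inhibitory Smad gene Dad (105.3). Of these, tkv also had a strong single-gene summit. At dpp the summit lay 41 bp upstream of the TSS and had an entry in the thresholded list of replicate 1 only (59.1), with 73.7 in the ranked list of replicate 2. In the EGFR, FGF and Notch pathways 12 of 25 (48.0%) did, led by the FGF ligand bnl (166), the protease gene kuz (164), the ETS repressor aop (139), the EGFR ligand vn (136) and rho (126), which processes EGFR ligands. All 5 of these had an entry in both replicates' lists.

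Lists of tissue regulators had similar shares, against 11.3% of all protein-coding genes with a member and 7.14% with a strong single-gene summit. Of 23 mesoderm and muscle regulators 10 (43.5%) had a member and 2 (8.70%) a strong single-gene summit. The highest members were at ush (169), the GATA factor gene pnr (148), the T-box gene mid (137), Mef2 (133) and zfh1 (127). Of these, Mef2 also had a strong single-gene summit. Of 19 structural muscle genes none had a member and 18 had no promoter summit at all. Of 23 proneural and neural genes 9 had a member, led by da, which encodes the common partner of proneural proteins (183), scrt (147) and emc, which encodes an inhibitor of proneural proteins (145). Of 21 nuclear receptor genes 8 did, among them EcR (114.6), which encodes the ecdysone receptor, and Eip75B (117). A strong single-gene summit was at 2 of the 21 (9.52%).

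Chromatin and general genes were mixed. Of all protein-coding genes, 11.3% had a member and 7.14% a strong single-gene summit, and several of the lists here lay near the first share. Among 30 Polycomb and trithorax group genes 4 had a member (13.3%), namely Asx (197, overlapping a stronger entry), Psc (139), Su(z)2 (125) and kis (112). A strong summit was at 5 of the 30, among them kis, with a signal of 1216. Among 17 insulator and promoter factor genes 6 had a member, including zld (108), which encodes the early genome activator Zelda, and CTCF (69.0, overlapping a stronger entry). Of 92 cytosolic ribosomal protein genes 14 (15.2%) had a member, led by RpL27A (173) and RpL35 (146), and 21 a strong summit. The summit at RpL27A lay at -499 bp from its TSS, just inside the limit of 500 bp. Of 80 respiratory chain genes 14 (17.5%) had a member, and of 48 proteasome genes 4 (8.33%) did. Prosalpha5 (188), Rpn1 (186) and Prosbeta6 (185) lay close below the threshold. Of 85 cytochrome P450 genes 3 had a member (3.53%), and of the 70 Cpr cuticle protein genes, 179 chemoreceptor genes and 25 Osiris genes none did.

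Isolated members of developmental and of general genes were set side by side for position and sites, taking the strongest member of each gene. For 100 developmental genes the median position was 112 bp upstream of the TSS (-112, quartiles -203 and -16.8) and 77 were upstream. For 56 general genes the median was 0 (-38.8 and 78) and 28 were upstream. GAGAGAG was within 50 bp of the summit in 27 of the 100 and none of the 56, and TATCGATA in none of the 100 and 7 of the 56 (12.5%). TCAGT was at the TSS of 35 of the 100 and 2 of the 56 (3.57%). Over all isolated members GAGAGAG was at 6.30% and TATCGATA at 5.65%. An entry in both replicates' thresholded lists overlapped 38 of the 100 and 20 of the 56, so both groups were near the 35.4% of all isolated members. These shares were computed after the list counts were seen and are given without a test.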

How the data were processed

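The files were peak lists on dm6. Per the labels and the submitters' file notes, each replicate's lists came from that replicate's alignments and the shared list from both, with control alignments. The sources used here name neither the aligner nor the peak caller. The authors deposited a signal and a score (capped at 1000) for each peak and the offset of its summit; the score was used only for 1 alternative. Ranked lists held 8 further columns each (16 in all) that could not be tied to a sample and were not used. Depth is unknown, and Wilson and Newcombe 95% intervals cover counting error only.

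Genes came from Ensembl release 115 (BDGP6.54), sequence from RefSeq release 6. Coordinates count from 1. Work was done in Python 3.11.15 with NumPy 2.4.6, pandas 2.3.3, SciPy 1.17.1 and matplotlib 3.10.9. Overlap meant at least 1 bp. Tests were exact McNemar and Fisher's exact tests with Benjamini-Hochberg adjustment and a threshold of 0.05, tested on simulated data with known answers. The members and all lists and sites were chosen with earlier results of these data known. Genes named were all members for lists of up to 8 genes, otherwise from the 5 highest by signal, plus the members nearest the threshold, the 3 lowest, the 5 genes with most members and the 3 strongest in neither replicate list. Symbols of 5 listed genes found no match in the annotation and were left out.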

Additional observations from a re-analysis of the deposited data

How the results depend on the processing

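No paired analysis was possible because the series has 1 group. The number of members was 1782, and 1027 with a signal threshold of 100 or 783 when an entry in both replicates' lists was required. The share of members in both lists was 27.9% for summits within 100 bp and 35.5% for an overlap of 50% of both entries. The count of sites that passed between summit and flank (11) was 7 against the downstream flank. The count between members and strong summits (4) was 9 with windows of 100 bp to either side, and that between members and weak summits elsewhere (4) was 1 with 51-bp windows. Gene properties that passed (4) were 2 with members in both replicates' lists.

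Of the 6-base sequences, 830 passed between summit and flank (473 higher, 357 lower). With 51-bp windows these were 493 (272 and 221), against the downstream flank 296 (126 and 170), and against a flank 1000 bp away 371 (186 and 185). Leaving out 1 replicate gave 443 to 554 (241 to 312 higher, 202 to 242 lower). Between members and strong summits 527 passed, with 229 for 51-bp and 833 for windows of 100 bp to either side. Developmental genes with a member (102) were 62 to 71 when 1 replicate was left out.

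On the log2 ratio of positions holding a site only at the summit to those holding it only at the flank, GTATTTT or GTATATT (-0.32) was 0.72 against the downstream and 0.58 against the 1000-bp flank, TGTTTAC or TATTTAC (-0.14) was 0.66 and TATAAA (-1.30) was 0.17 against the downstream flank, and CATCNCTA (1.42) was -0.18 with a signal threshold of 100. Genes with a CG symbol, whose share did not pass the test (1.82 points), passed it with a 250-bp promoter window (4.66 points) and in replicate 1's own list (5.15 points). The cause of these shifts was not tested. Position and initiator differences kept their direction and call under every alternative run, except the share beyond 250 bp, which a promoter window of 250 bp leaves at 0. Depth is unknown, so how far it limits weak peaks cannot be stated.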
